A study of Mus musculus with 48 samples.

Results

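Cthrc1 (collagen triple helix repeat containing 1, Entrez Gene 68588) was followed through skin arrays of C3H/HeJ mice in a series on preventing alopecia areata (AA), an autoimmune hair loss, with agents aimed at interleukin-15 (IL-15) signalling. It is 1 of 18194 genes named on the array. Its only probe set naming no other gene, 1452968_at, was 1 of 45101, so no further probe set was at hand as a check. The gene was selected on its week 13 values: in a fit over 13650 genes it was the 1 gene called in the comparison of both Janus kinase (JAK) inhibitor effects at week 13 (0.00733% called), and ranked 31 by the size of that difference. Its values in the JAK inhibitor groups are therefore a description, given without a test.

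CTHRC1 is a secreted glycoprotein first described in injured arteries. It is known as a mark of activated, matrix-producing fibroblasts in wounds and fibrosis, where its expression responds to transforming growth factor beta (TGF-beta) and bone morphogenetic protein (BMP) signals. The protein is also known to favour the planar cell polarity branch of Wnt signalling through Frizzled receptors and Ror2. In skin, dermal fibroblasts make the collagen that surrounds hair follicles, and the hair shaft itself is built from hair keratins such as Krt31.

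The series holds 48 Affymetrix arrays of whole skin, labelled as 3 to 5 biological replicates per treatment and time, of which 47 were placed in 13 groups by title. Week 5 held sham (n = 4), phosphate-buffered saline given intraperitoneally (PBS ip, n = 4) and il15rb (n = 3), which in the study is known to be an antibody to the receptor beta chain of IL-15. Week 6 held jak3i (n = 5), known of the study as tofacitinib, jak12i (n = 5), known as ruxolitinib, PBS by pump (n = 3) and PBS by gavage (n = 5). Week 13 held il15rb, jak3i, jak12i and PBS by each of the 3 routes, with n = 3 each. In this model all mice are known to carry grafted skin from affected donors, except where sham is named. Age and dose are not given in the sources used here, and no label gives the route of an agent. Background knowledge of the study was used to take PBS pump as the control for jak3i, PBS gavage as that for jak12i and PBS ip as that for il15rb. The array titled PBS ip week 5 replicate 1 has a treatment label that names IL15 and was left out of every group.

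Values are log2 signals on the scale the authors deposited, differences are in log2 units ± standard error (SE), and groups are given as mean ± SD. Each SE, interval and limma p uses 1 estimate of spread per gene, shared by all 13 groups. For Cthrc1 the group SD itself ran from 0.05 in il15rb at week 5 to 1.11 in jak3i at week 13. A difference can therefore look too precise between wide groups and too imprecise between narrow ones. Skin markers were present throughout: the lowest of the 47 arrays stood at 12.4 for Krt5, 14.1 for Krt10 and 12.9 for Col3a1. The 75th percentile of all probe sets lay between 8.47 and 8.68 at week 5, 8.15 and 8.35 at week 6, and 8.68 and 8.78 at week 13, so a difference between weeks cannot be told apart from a difference between sets of arrays. Replicate arrays of a group correlated between 0.925 and 0.996. Whole-skin RNA cannot tell more fibroblasts from more Cthrc1 RNA per fibroblast.

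Cthrc1 was a low signal in most skin samples and a high one in a few. In 32 of 47 arrays it lay below 6.70, the median of the deposited table, and the remaining arrays reached up to 10.04. Below that median were 10 of 11 arrays at week 5, 14 of 18 at week 6 and 8 of 18 at week 13. Ordered by mean, jak3i at week 13 stood highest at 8.81 ± 1.11, followed by PBS gavage at week 13 with 8.04 ± 0.90 and PBS pump at week 6 with 7.51 ± 0.95. PBS ip at week 13 came next at 7.01 ± 0.61, then jak3i at week 6 at 6.86 ± 0.73 and PBS pump at week 13 at 6.58 ± 0.43. Sham at week 5 (6.46 ± 0.71), jak12i at week 6 (6.45 ± 0.16), il15rb at week 13 (6.28 ± 0.51) and PBS gavage at week 6 (6.25 ± 0.23) were close together. The lowest were jak12i at week 13 (6.08 ± 0.12), il15rb at week 5 (5.89 ± 0.05) and PBS ip at week 5 (5.83 ± 0.14). Every neighbouring pair in this order had overlapping arrays, except jak12i at week 13 and il15rb at week 5. A fold between low signals of this kind can understate the change in RNA.

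**Figure D1:**
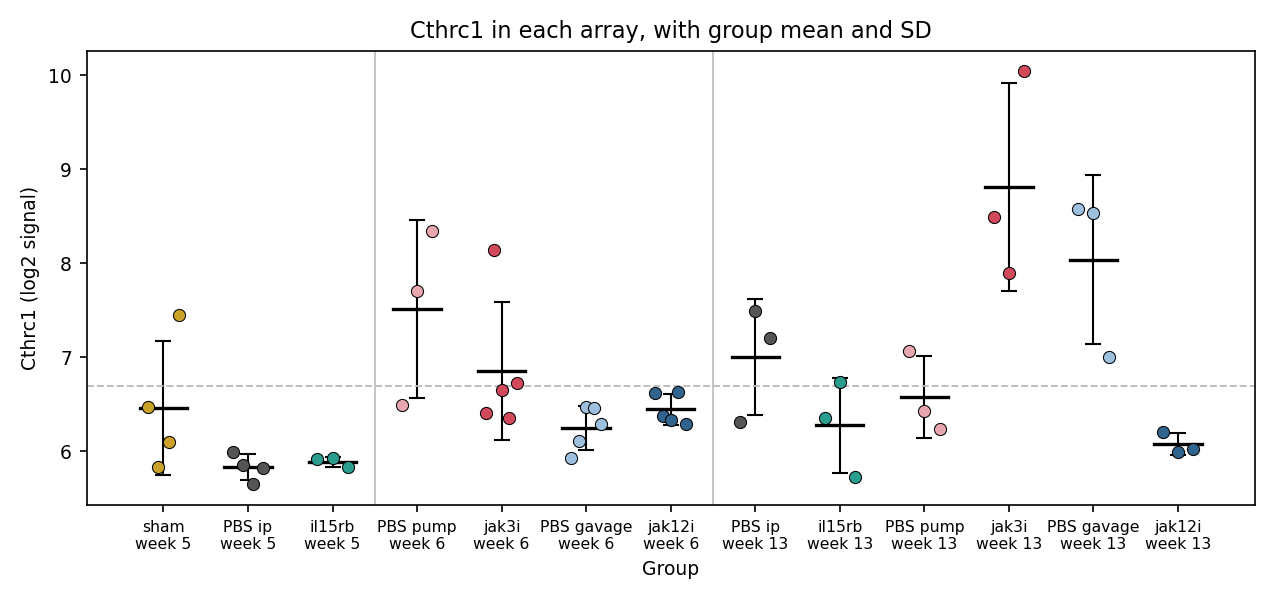
Cthrc1 log2 signal (vertical axis) in each of the 47 arrays, by group (horizontal axis), with weeks set apart by vertical lines; the thick bar is the group mean, the whiskers its SD, and the dashed line the table median of 6.70. All 3 jak3i and all 3 PBS gavage arrays of week 13 lie above that line, and all 3 jak12i arrays of week 13 lie below it.

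Early in treatment, at week 5, the antibody and its vehicle groups had nearly the same low Cthrc1 signal. The il15rb arrays read 5.91, 5.93 and 5.83, and the PBS ip arrays read 6.00, 5.86, 5.65 and 5.83. Those ranges overlap, and il15rb minus PBS ip was 0.06 ± 0.43 (95% interval -0.81 to 0.93, limma adjusted p = 0.999549). Sham skin gave 6.47, 5.83, 6.10 and 7.45, with replicate 4 well above the other sham arrays. PBS ip minus sham was -0.63 ± 0.40 (-1.43 to 0.18, limma adjusted p = 0.999949), and it was -0.30 without sham replicate 4. In the same way il15rb minus sham was -0.57 ± 0.43 (-1.44 to 0.30, limma adjusted p = 0.64651), and -0.24 without that array. None of these 3 differences passed the test, and the intervals do not exclude a difference of about the size of the SD in sham skin. For il15rb against PBS ip that width comes from the spread shared by all groups, since their own SDs were 0.05 and 0.14.

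Sham replicate 4 also stood apart in other genes. Its Krt31, a hair shaft keratin, read 10.71 where the other sham arrays lay between 6.11 and 6.19, and its Col1a1, the main chain of type I collagen, read 11.74 against 9.66 to 10.27. The part of hair growth or collagen in its Cthrc1 value was not tested. At week 5 the share of all genes called was 0.0293% for PBS ip against sham, 0.0733% for il15rb against PBS ip and 0.0293% for il15rb against sham. No member of the 8 gene lists around Cthrc1, 117 tested genes in all, was called by limma in these comparisons, while 9, 1 and 21 members had an unadjusted p under 0.05.

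At week 13 Cthrc1 in the antibody group overlapped its vehicle, and the difference did not pass the test. The il15rb arrays read 6.36, 6.74 and 5.73, and the PBS ip arrays read 6.32, 7.49 and 7.21. The groups overlap through PBS ip replicate 1, which lay below 2 of the 3 il15rb arrays. The difference was -0.73 ± 0.46 (95% interval -1.66 to 0.20, limma adjusted p = 0.252184). It ran from -1.07 without PBS ip replicate 1 to -0.46 without il15rb replicate 3, and the adjusted p was 0.0784067 with Col1a1 as a covariate. Col1a1 itself was at 0.53 ± 0.47 in il15rb minus PBS ip and Krt31 at -2.15 ± 1.11, and neither passed (limma adjusted p = 0.433 and 0.154).

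Over all genes 25.7% were called in this comparison, 15.1% higher and 10.6% lower. The 35 calls among the 117 list genes were near that share, so they are not read as particular to genes around Cthrc1. Of the activated fibroblast list, 4 of 19 tested members fell and 1 rose. The collagenase Mmp13 fell by 2.82 ± 0.67, the matrix glycoprotein tenascin C (Tnc) by 1.90 ± 0.46, the protease inhibitor Timp1 by 1.50 ± 0.47 and thrombospondin 1 (Thbs1) by 1.35 ± 0.44, while Thbs2 rose by 0.84 ± 0.29. Of 17 fibrillar collagen and matrix genes, the small proteoglycans decorin (Dcn, 0.63 ± 0.14) and lumican (Lum, 0.81 ± 0.26) rose, and Col12a1 (-0.75 ± 0.25) and biglycan (Bgn, -0.61 ± 0.22) fell. The median over those 17 was 0.37, beside 0.01 over all genes tested.

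Signalling genes moved in both directions. Among 20 Wnt and planar cell polarity genes, 6 fell and none rose. They included the polarity core genes Vangl1 (-0.77 ± 0.14), Vangl2 (-0.48 ± 0.14) and Celsr1 (-0.53 ± 0.16) and the receptor Fzd6 (-0.65 ± 0.16). Ror2 (0.16 ± 0.22) and the ligand Wnt5a (-0.28 ± 0.31) did not pass. Among 19 TGF-beta and BMP genes 6 rose, among them Tgfbi (0.66 ± 0.14), a TGF-beta-induced matrix protein, and 3 fell, among them the Smad repressor Skil (-0.95 ± 0.20). The ligand Tgfb1 did not pass (-0.25 ± 0.14). All 6 called genes of the 11 tested in the dermal papilla list rose, with the smallest p for Prom1 (1.39 ± 0.21) and Hey1 (0.70 ± 0.19).

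Markers of other cell types moved beside these counts. All 7 tested T cell markers fell (Cd8a, -2.17 ± 0.20), all 5 adipocyte markers rose (Adipoq, 2.30 ± 0.27), and 9 of 10 skeletal muscle markers rose. Of 8 endothelial and smooth muscle markers 6 rose, of 7 fibroblast markers 3 rose, of 9 macrophage markers 1 rose and of 6 keratinocyte markers 2 fell. Their part in the list counts was not tested. The mean muscle level ranged from 7.36 to 12.78 in the PBS ip arrays and from 13.12 to 13.53 in the il15rb arrays. Without the 3 arrays of low muscle signal, PBS ip replicate 3 among them, the Cthrc1 difference was -0.63. The PBS ip arrays that were kept still lay below il15rb in muscle level, so that imbalance was not removed. Of the 117 list genes 35 were called here, 14 without PBS ip replicate 1, 53 without replicate 2 and 12 without replicate 3.

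At week 6 jak3i skin was not above its pump vehicle in Cthrc1. The jak3i arrays read 6.41, 8.14, 6.66, 6.36 and 6.73, and the PBS pump arrays read 6.49, 7.70 and 8.35. Replicate 2 of jak3i stood apart at 8.14, inside the range of the pump arrays, and the groups overlap. The difference was -0.66 ± 0.41 (95% interval -1.49 to 0.18), and it moved between -1.17 without PBS pump replicate 1 and -0.24 without PBS pump replicate 3. The jak12i arrays read 6.63, 6.38, 6.33, 6.63 and 6.29, close to the gavage vehicle at 5.93, 6.11, 6.47, 6.46 and 6.30. Here the difference was 0.20 ± 0.36 (-0.52 to 0.92), also with overlap. The effect of jak3i minus that of jak12i was -0.85 ± 0.54 (-1.95 to 0.25), with -0.44 without PBS pump replicate 3 and -1.37 without PBS pump replicate 1.

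The vehicles themselves differed at this time. PBS pump exceeded PBS gavage by 1.26 in Cthrc1, and no pump array lay below a gavage array. Compared directly, jak3i minus jak12i was 0.41 ± 0.36 (-0.31 to 1.13), or 0.09 without jak3i replicate 2. Against the vehicle of the other route the signs turned, to 0.61 for jak3i and -1.06 for jak12i, and their difference became 1.67. Against all vehicle arrays of the week they were 0.13 and -0.28. Their difference of 0.41 is the direct comparison again, since a shared vehicle cancels. The direction of the week 6 differences thus changed with the vehicle chosen.

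Few list genes passed at week 6 against the vehicle. In jak3i against PBS pump, where 4.1% of genes were called (0.454% higher and 3.64% lower), 3 of 117 list genes fell: Col14a1 (-1.59 ± 0.35), a collagen of the fibril surface, the fibroblast surface protease Fap (-1.05 ± 0.25) and the stromelysin Mmp3 (-1.43 ± 0.37). With quantile normalization 5 were called, 2 of them higher, and the share of higher calls over all genes went from 11.1% to 31.5%. The count was 10 without PBS pump replicate 1, 0 without replicate 2 or replicate 3, and 5 without jak3i replicate 2. Macrophage markers moved in the same comparison, with 7 of 9 lower and the mean level at 9.22 to 10.13 in jak3i and 10.65 to 11.36 in PBS pump. Their part in the Cthrc1 values was not tested.

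In jak12i against PBS gavage, with 9.58% of genes called (1.49% higher and 8.1% lower), 3 of 117 list genes fell and 2 rose. The collagen chaperone Serpinh1 (-0.74 ± 0.22), the collagen prolyl hydroxylase P4ha1 (-0.29 ± 0.08) and Smad2 (-0.28 ± 0.09) fell, and the hair keratins Krt84 (0.89 ± 0.29) and Krt36 (0.65 ± 0.22) rose. The share of higher calls over all genes was 15.5%, or 42.5% with quantile normalization. With quantile normalization 6 list genes were called and 5 of these were higher, and with array medians subtracted 3 were called, 1 of them higher. Leaving out an array gave counts down to 1, as without jak12i replicate 2, jak12i replicate 3 or PBS gavage replicate 5, with 2 without jak12i replicate 1 or PBS gavage replicate 3 and 3 without PBS gavage replicate 1. Col1a1 was -0.87 ± 0.37 and Krt31 1.72 ± 0.86 here, neither past the test. In the difference of both effects at week 6, 2.37% of all genes were called. No list gene was among them by limma, and 13 of 117 had an unadjusted p under 0.05.

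Collagens passed in the direct comparison of both agents at week 6. Of all genes 33.1% were called, 9.16% higher and 23.9% lower in jak3i, and 9 of 17 fibrillar collagen and matrix genes were higher in jak3i and none lower. They included Col1a1 (1.16 ± 0.37), Col3a1 (0.61 ± 0.16), Col5a1 (1.06 ± 0.27) and the collagen-binding Sparc (0.92 ± 0.20), and this count of 9 was the same under quantile normalization and median subtraction. In turn 7 of 20 Wnt and planar cell polarity genes were lower in jak3i, with the smallest p for Vangl2 (-0.68 ± 0.11) and Prickle2 (-0.65 ± 0.13); under quantile normalization 6 were lower and 1 higher. Over all 8 lists 43.5% of 23 calls were higher, against 61.5% of 26 after quantile normalization, and over all genes these shares were 27.7% and 42.5%. The vehicles differed in the same directions: Vangl2 was at 8.82 in PBS pump and 9.73 in PBS gavage, Col1a1 at 11.58 and 11.09, and Col3a1 at 14.30 and 14.01. A direct comparison cannot tell the agent from its route, and the part of the route in these calls was not tested.

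By week 13 Cthrc1 had its widest spread between groups. The jak3i arrays read 8.49, 7.90 and 10.04, all above the PBS pump arrays at 7.07, 6.43 and 6.24. The difference was 2.23 ± 0.46 (95% interval 1.30 to 3.16), a 4.70-fold signal. That SE comes from the spread shared by all groups, while the SD was 1.11 in jak3i and 0.43 in PBS pump. The jak12i arrays read 6.21, 5.99 and 6.02, all below the PBS gavage arrays at 8.58, 8.54 and 7.002. That difference was -1.97 ± 0.46 (-2.90 to -1.04), a 3.91-fold lower signal. The jak3i effect minus the jak12i effect was 4.20 ± 0.65 (2.88 to 5.51), the value on which the gene was chosen. The week 13 intervals for the JAK inhibitors make no allowance for that choice, can lie too far from 0 and are not read as a test.

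Leaving out single arrays kept these signs: the jak3i difference ran from 1.62 without jak3i replicate 3 to 2.69 without jak3i replicate 2, and the jak12i difference from -2.49 without PBS gavage replicate 3 to -1.70 without PBS gavage replicate 1. The difference of effects ran from 3.58 without jak3i replicate 3 to 4.72 without PBS gavage replicate 3. Since the gene was chosen on the difference between these same arrays, this is no sign of stability.

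A part of that 4.20 lay between the vehicles. PBS gavage exceeded PBS pump by 1.46 at week 13, the reverse of week 6, with overlap between gavage replicate 3 (7.002) and pump replicate 1 (7.07). PBS ip lay between them, 0.43 above pump and 1.04 below gavage. Compared directly, jak3i minus jak12i was 2.74 ± 0.46 (1.81 to 3.67), with no overlap, and ran from 2.12 without jak3i replicate 3 to 3.19 without jak3i replicate 2. Against the vehicle of the other route, jak3i was 0.77 higher, with arrays that overlapped PBS gavage. Against PBS pump jak12i was lower at -0.50, without overlap, and the difference of effects was 1.27. Against all 9 vehicle arrays of the week the jak12i difference was -1.13. The difference of effects, 2.74, is then the direct comparison again, since a shared vehicle cancels. The signs were the same for each vehicle tried, which is no sign of stability either, since the gene was chosen on these arrays.

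**Figure D2:**
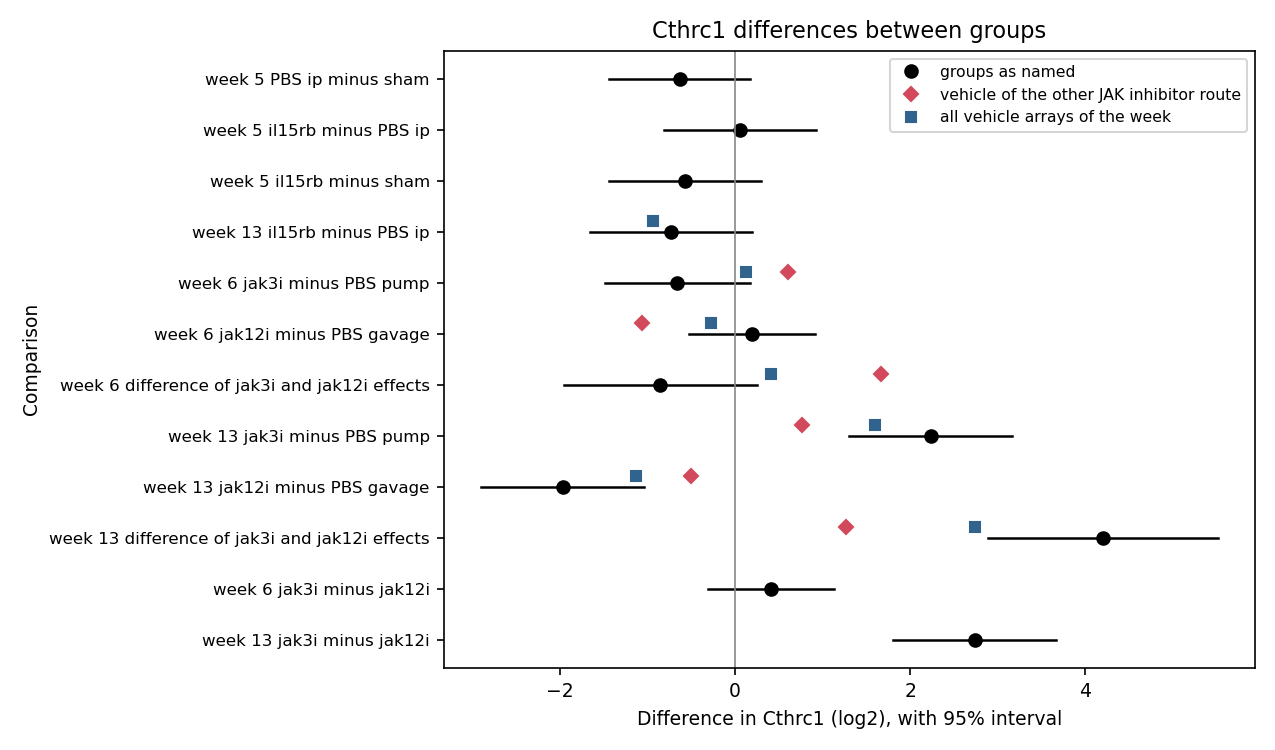
Differences in Cthrc1 (log2, horizontal axis) for each comparison (vertical axis): black points are the groups as named with their 95% intervals, red diamonds use the vehicle of the other JAK inhibitor route and blue squares all vehicle arrays of the week. At week 6 the red and blue marks lie on the other side of 0 from the black points for jak3i, jak12i and their difference, and at week 13 all marks for a JAK inhibitor comparison lie on the same side. For a difference of effects the blue square equals the direct comparison, since a shared vehicle cancels. The week 13 intervals for the JAK inhibitors make no allowance for the choice of the gene on these arrays.

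Values of a treatment at its 2 times are set side by side without a test, since weeks differ as sets of arrays do. From week 6 to week 13 the Cthrc1 mean was 1.95 higher in jak3i and 1.79 higher in PBS gavage. It was lower in PBS pump, by -0.94, and in jak12i, by -0.37. From week 5 to week 13 it was 1.17 higher in PBS ip and 0.38 higher in il15rb. The arrays of both times did not overlap for PBS gavage, jak12i and PBS ip, and overlapped for the others.

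Matrix proteoglycans and elastin were among the genes around Cthrc1 that passed in jak3i against PBS pump at week 13. Here 16% of all genes were called, 9.66% higher and 6.32% lower, and 5 of 17 fibrillar collagen and matrix genes rose with none falling: Lum (1.09 ± 0.26), fibromodulin (Fmod, 1.32 ± 0.37), Dcn (0.50 ± 0.14), elastin (Eln, 1.11 ± 0.35) and Sparc (0.79 ± 0.25). The median over the 17 was 0.62, beside 0.03 over all genes. Col1a1 read 11.79, 10.63 and 11.83 in jak3i and 10.62, 9.91 and 10.83 in PBS pump. The groups overlap slightly and the difference of 0.96 ± 0.47 did not pass, nor did Col1a2 (0.55 ± 0.23), Col3a1 (0.52 ± 0.21) and fibronectin (Fn1, 0.48 ± 0.42). Of 11 genes of collagen processing, the procollagen enhancer Pcolce (1.10 ± 0.29), Crtap (0.42 ± 0.14) and the crosslinking enzyme Loxl1 (0.93 ± 0.30) rose, while lysyl oxidase (Lox) at 0.92 ± 0.37 did not pass.

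Activated fibroblast genes in jak3i were mixed. Of 19, asporin (Aspn, 1.21 ± 0.27), Col8a1 (1.59 ± 0.45), Fap (0.93 ± 0.28), the secreted Frizzled-related protein Sfrp2 (2.10 ± 0.67) and Thbs2 (0.90 ± 0.29) rose, and the activin subunit Inhba fell by 0.97 ± 0.31. Periostin (Postn, 0.27 ± 0.15), smooth muscle actin (Acta2, 0.11 ± 0.17), Tnc (-0.56 ± 0.46) and Timp1 (-0.92 ± 0.47) did not pass. Among TGF-beta and BMP genes 1 of 19 rose (Tgfbi, 0.46 ± 0.14) and 1 fell (Skil, -0.57 ± 0.20), and among Wnt and planar cell polarity genes 1 of 20 fell (Vangl1, -0.41 ± 0.14). Of the dermal papilla list 4 of 11 rose, with the smallest p for Hey1 (0.93 ± 0.19). No hair keratin was called. Over the lists 23 of 117 genes were called, beside 16% of all genes, with 12 without jak3i replicate 1 and 8 without jak3i replicate 3.

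In jak12i against PBS gavage at week 13, 21.9% of all genes were called, 11.6% higher and 10.3% lower. Of 19 activated fibroblast genes 6 fell and none rose: Mmp13 (-3.42 ± 0.67), Timp1 (-2.48 ± 0.47), Lrrc15 (-2.14 ± 0.78), a surface protein of matrix-producing fibroblasts, Tnc (-2.10 ± 0.46), Inhba (-1.36 ± 0.31) and the membrane protease Adam12 (-1.32 ± 0.36). Only Col12a1 (-1.19 ± 0.25) of the 17 fibrillar collagen and matrix genes was called, and their median was -0.26, beside 0.02 over all genes. Col1a1 read 10.37, 10.77 and 10.50 in jak12i and 11.84, 11.68 and 10.60 in PBS gavage; its difference of -0.83 ± 0.47 did not pass.

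Of 12 hair keratins 10 fell and none rose in that comparison, with a median of -3.26. Krt31 read 6.74, 6.02 and 6.06 in jak12i and 9.45, 9.06 and 11.23 in PBS gavage, with no overlap and a difference of -3.64 ± 1.11 (limma adjusted p = 0.016). In jak3i it read 9.40, 11.62 and 11.17 against 9.85, 9.23 and 11.97 in PBS pump, all inside the range of that vehicle. TGF-beta and BMP genes gave 5 higher and 2 lower of 19, with the ligand Tgfb1 lower at -0.46 ± 0.14, Bmp4 higher at 0.69 ± 0.14 and Bmp2 higher at 1.22 ± 0.26. Of 20 Wnt and planar cell polarity genes 2 rose and 3 fell, Fzd6 (-0.48 ± 0.16) and Vangl1 (-0.42 ± 0.14) among the latter, while Ror2 (-0.41 ± 0.22), Wnt5a (-0.66 ± 0.31) and Vangl2 (-0.12 ± 0.14) did not pass. Over the lists 33 of 117 genes were called, beside 21.9% of all genes, and 12 without PBS gavage replicate 3.

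Cell type markers at week 13 gave the following levels beside Cthrc1. The fibroblast markers share Col1a1, Col1a2, Col3a1, Dcn and Lum with the fibrillar collagen and matrix list, so both lists count these genes. The mean of 7 fibroblast markers lay at 12.65 to 13.28 in jak3i and 12.07 to 12.40 in PBS pump, without overlap, and 3 of 7 rose. It lay at 12.59 to 12.72 in jak12i, inside the 12.31 to 12.92 of PBS gavage, and none was called. Adipocyte markers were higher in both agents, 4 of 5 in jak3i and 5 of 5 in jak12i, and T cell markers lower, 7 of 7 and 6 of 7. Of 8 endothelial and smooth muscle markers 6 rose in each agent. Their mean level lay at 9.23 to 9.66 in jak3i against 8.20 to 8.51 in PBS pump and at 9.37 to 9.54 in jak12i against 8.70 to 8.91 in PBS gavage, without overlap. Besides these, 1 of 10 muscle markers rose in jak3i, and in jak12i 2 of 6 keratinocyte markers fell and 1 of 9 macrophage markers rose. In the muscle list every PBS pump array (7.70 to 12.59) lay below jak3i (13.04 to 13.23). Leaving out the arrays of low muscle signal gave a jak3i difference in Cthrc1 of 2.16, but did not remove that muscle difference. The part of these cell types in the Cthrc1 difference was not tested beyond that value.

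With both agents compared directly at week 13, 1.31% of all genes were called, 0.74% higher and 0.571% lower in jak3i. Of 117 list genes 10 were called, all of them higher in jak3i. The same-numbered arrays of these groups correlated between 0.120 and 0.256 in all 3 pairs. With the replicate number as a block, limma called 52 genes in place of 179 and none of the 117, of which 33 had an unadjusted p under 0.05. The 10 genes called without the block were 7 hair keratins (Krt31, 4.46 ± 1.11), Mmp13 (2.96 ± 0.67), Adam12 (1.44 ± 0.36) and the macrophage elastase Mmp12 (3.28 ± 0.86). No fibrillar collagen passed, with Col1a1 at 0.87 ± 0.47. Without the block the count was 2 without jak3i replicate 2, and 0 without jak3i replicate 3 or without any of the jak12i replicates. In the difference of effects itself no list gene was called by limma, and 39 of 117 had an unadjusted p under 0.05. Col1a1 stood there at 1.79 ± 0.67 and Krt31 at 4.02 ± 1.57.

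Cthrc1 and Col1a1 were compared over the arrays of each week. At week 13 Pearson's r was 0.705 over 18 arrays (permutation p = 0.00111, adjusted over 12 relations 0.0133) and Spearman's rho 0.562 (permutation p = 0.0167, adjusted 0.0766). The points share arrays on which the gene was chosen, so r was also taken with group means removed, where it was 0.675 and rho 0.668 (adjusted permutation p = 0.0977 and 0.1). Without the 2 arrays farthest from the Col1a1 median, r was 0.572 over 16 arrays (permutation p = 0.0218, adjusted 0.12). The relation kept its sign but no longer passed after adjustment. At week 13 the arrays of high Cthrc1 in jak3i replicates 1 and 3 and PBS gavage replicates 1 and 2 had a Col1a1 of 11.68 or higher, while jak3i replicate 2 held a Cthrc1 of 7.90 with a Col1a1 of 10.63.

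At the earlier weeks the relation to Col1a1 did not pass over all arrays. At week 6 r was 0.43 and rho 0.385 over 18 arrays (permutation p = 0.0837 and 0.116, adjusted 0.144 and 0.232), and r was 0.682 (adjusted permutation p = 0.0386) when the 2 arrays farthest from the Col1a1 median were left out. With group means removed r was 0.251 and rho 0.282 (adjusted permutation p = 0.339 and 0.483). At week 5 r was 0.661 and rho -0.136 over 11 arrays (permutation p = 0.0681 and 0.693, adjusted 0.136 and 0.831). That r rested on sham replicate 4 and 1 other array, since without the 2 farthest arrays it was -0.317. The second Col1a1 probe set, 1423669_at, gave r of 0.696, 0.593 and 0.702 at weeks 5, 6 and 13.

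Krt31 fell into separate clusters of low and high arrays. Its r over all arrays of a week, counted among the 12 relations, passed at no week after adjustment and is not read here, and each cluster was taken apart. A Krt31 signal above 8 was found in sham replicate 4 at week 5, in jak12i replicates 2 and 3 at week 6 and in 12 of 18 arrays at week 13. The week 6 arrays with high Krt31, at 10.76 and 10.50, had an ordinary Cthrc1 of 6.38 and 6.33. Among the 12 high arrays of week 13, Cthrc1 ranged from 6.24 to 10.04 and r was -0.172, with rho -0.301 (permutation p = 0.594 and 0.341, r adjusted over 4 relations 0.704). Among the 6 low arrays of week 13, r was 0.917 and rho 0.771 (permutation p = 0.0154 and 0.104, r adjusted 0.0614); with 6 arrays no pair could be left out. Low arrays gave r of 0.392 and rho of 0.697 at week 5 (n = 10, permutation p = 0.266 and 0.0299, r adjusted 0.533), and r of 0.085 and rho of 0.265 at week 6 (n = 16, permutation p = 0.704 and 0.322, r adjusted 0.704). The cut at 8 was set after the values were seen.

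**Figure D3:**
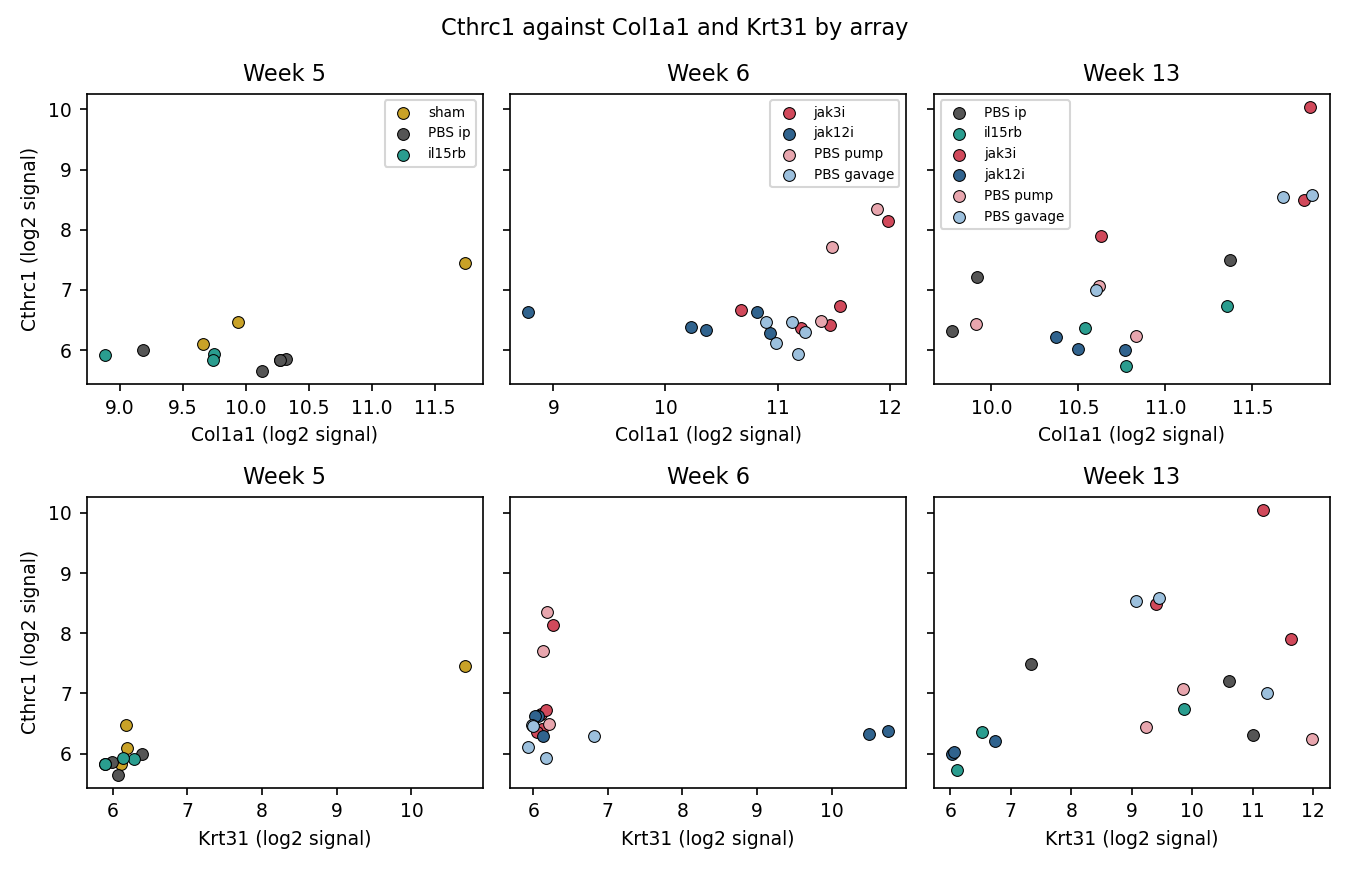
Cthrc1 log2 signal (vertical axes) against Col1a1 (top row) and Krt31 (bottom row) log2 signal, 1 point per array coloured by group, with weeks 5, 6 and 13 in columns. High Cthrc1 arrays lie towards high Col1a1 at weeks 6 and 13, while in the bottom row the 12 arrays of week 13 with Krt31 above 8 spread from 6.24 to 10.04 in Cthrc1.

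Genes were ordered by likeness to Cthrc1, as Pearson's r over the 47 arrays after subtracting week means. The highest was Itgbl1, an integrin beta-like secreted protein (r = 0.83), followed by Pdgfrl, a receptor-like gene named for its similarity to the platelet-derived growth factor receptor (0.81), and Adam12 (0.79). Next came the microfibril protein fibrillin 2 (Fbn2, 0.77), thrombospondin 4 (Thbs4, 0.77), the matricellular Wnt target Ccn4 (0.76), Bgn (0.75) and Eln (0.75). The cyclophilin Ppic (0.73) and the C1q-related secreted protein C1qtnf2 (0.73) completed the 10. These are descriptions over arrays that share groups and weeks. Leaving out the jak3i arrays of week 13, the 10 genes had r between 0.67 and 0.77. At the other end stood the mitochondrial fission factor Mff (r = -0.63), the exchange factor Arfgef1 (-0.60), Pdzk1ip1 (-0.59), the kinase Tnk1 (-0.58) and Ano9 (-0.58).

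The like genes shared the signs of the week 13 differences, as the choice by likeness over these same arrays would favour. Against PBS pump, jak3i arrays stood higher by 1.11 ± 0.35 in Eln, 1.07 ± 0.42 in Thbs4 and 0.91 ± 0.31 in Itgbl1, and each of the 10 had a positive difference. Against PBS gavage, jak12i arrays stood at -1.40 ± 0.36 in Fbn2, -1.32 ± 0.36 in Adam12 and -1.01 ± 0.27 in Ccn4, and each of the 10 had a negative difference. In the antibody comparison of week 13 the like genes did not share a sign: Adam12 was at -0.83 ± 0.36 and Bgn at -0.61 ± 0.22, and Fbn2 at 0.13 ± 0.36.

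**Figure D4:**
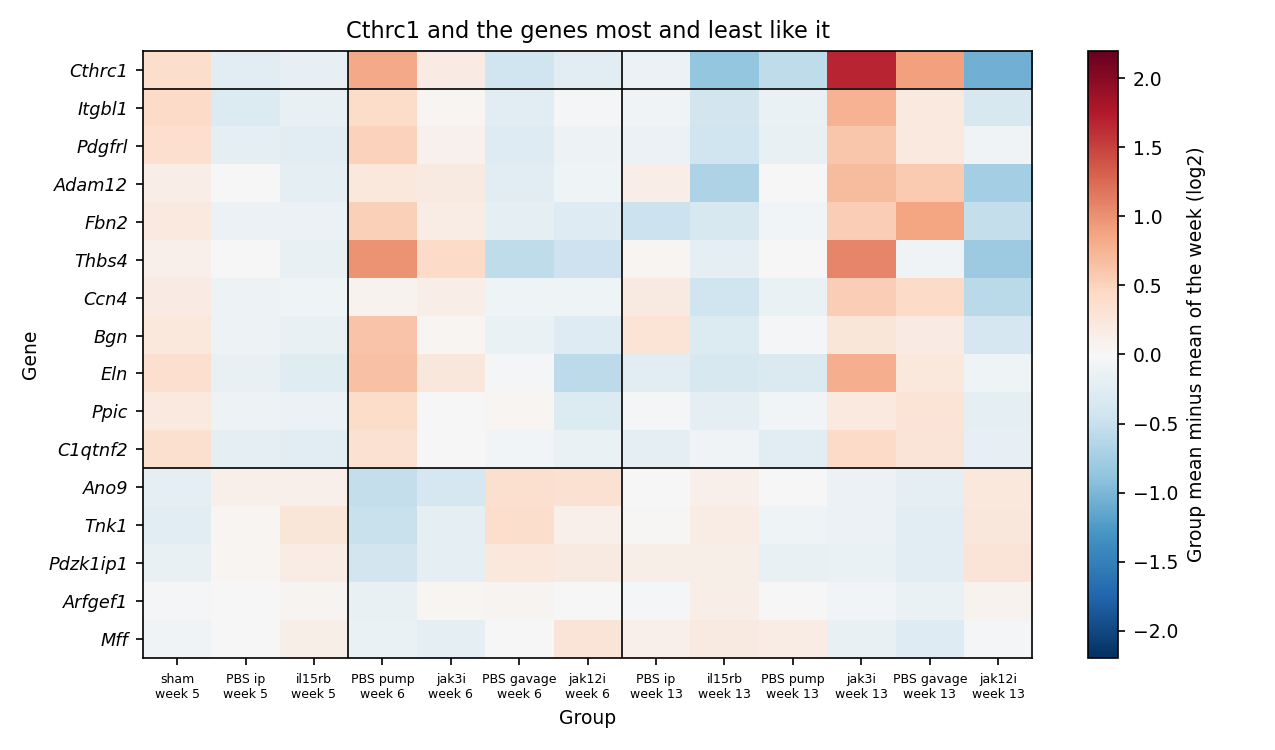
Group means minus the mean of their week (log2, colour scale) for Cthrc1, the 10 genes most like it and the 5 least like it (vertical axis) in the 13 groups (horizontal axis). Cthrc1 and the like genes lie on the red side in PBS pump at week 6 and in jak3i at week 13, and the least like genes are mostly blue in PBS pump at week 6.

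Set against the gene lists, Cthrc1 had its higher median r with the matrix lists. The median r was 0.53 over 17 fibrillar collagen and matrix genes, 0.44 over 19 activated fibroblast genes and 0.42 over 11 collagen processing genes, and every gene of these lists had a positive r. So did every tested hair shaft keratin and every tested fibroblast, skeletal muscle, and bone and cartilage marker. Over all genes the median was -0.04, and 5787 of 13649 were positive. Of 11 matrix breakdown genes 8 were positive, with a median of 0.45 and Mmp3 highest at 0.71. The median was -0.09 for TGF-beta and BMP genes, from Bmp2 at -0.41 to Tgfb3 at 0.35. It was -0.01 for Wnt and planar cell polarity genes, where Ror2 was highest at 0.33 and Fzd3 lowest at -0.37. Hair shaft keratins had a median of 0.34, dermal papilla genes -0.02, 7 fibroblast markers 0.47 and 6 keratinocyte markers -0.22. Most of those fibroblast markers are also in the fibrillar collagen and matrix list. No test was made of these medians. The hair keratin median is not read, because it pools the low and high clusters. Krt31 had r of 0.92 at week 5, with 1 high array, and -0.17 at week 6. With group means removed, r of the hair keratins lay between -0.13 (Krt32) and 0.14 (Krt34).

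**Figure D5:**
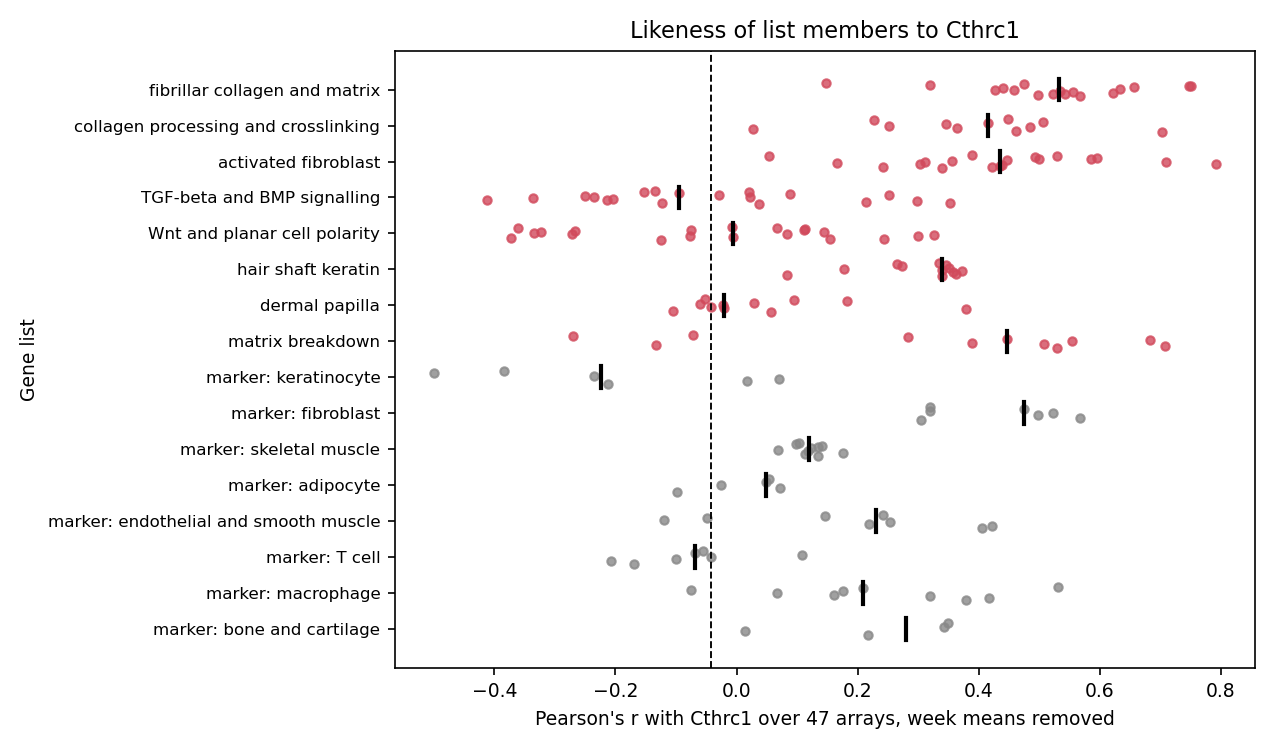
Pearson's r with Cthrc1 over 47 arrays, week means removed (horizontal axis), for every tested member of each list (vertical axis); red points are lists on the biology of Cthrc1, grey points cell type markers, black bars list medians and the dashed line the median of -0.04 over all genes. Members of the 3 collagen and fibroblast lists at the top all lie to the right of 0. So do the hair shaft keratins and the fibroblast, skeletal muscle, and bone and cartilage markers. TGF-beta, Wnt and dermal papilla genes lie on both sides.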

How the data were processed

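The authors deposited log2 signals of 45101 probe sets on 48 arrays. RMA is named in the submitters' processing notes, without a version, and joint normalization of all arrays is not stated there. Symbols came from the platform annotation: 34958 probe sets named 1 gene, 932 several and 9211 none, and 34754 symbols were updated by Entrez identifier. Where a gene had several probe sets, that with the highest mean stood for it, and 13650 genes above 6.70 (the table median) in at least 3 arrays were kept.

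Group means over 47 arrays were fitted in limma 3.58.1 (R 4.3.3), with Benjamini-Hochberg adjustment over all genes at 0.05, tested on simulated data. Permutation tests were two-sided with 100000 resamples. P-values measure the spread between arrays. Named were Cthrc1, Col1a1, Krt31, 13 further genes kept for all comparisons, the 10 most and 5 least like Cthrc1, and up to 4 called members of smallest p per list and comparison; other called members were named after their values were seen. The members and lists were chosen with earlier results of these data known. Same-numbered arrays correlated between -0.492 and 0.256 in 33 pairs, 9 of them over 0.1. In jak3i and jak12i at week 13 all 3 pairs were over 0.1, which counted as paired by the data, with no pairing in the labels, and the blocked value stands beside that result; no other comparison met this. Alternatives were quantile normalization, median subtraction, no filter, fits within a week, other vehicles, Col1a1 or Krt31 as a covariate, a replicate block and arrays left out.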

Additional observations from a re-analysis of the deposited data

Results flagged for a closer look

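In groups of 4 or 5 arrays, 15 sets of values of Cthrc1, Col1a1 and Krt31 were searched for an array far from the others, of which chance alone marks about 1 in 20, and 4 were found. Cthrc1 in jak3i week 6 replicate 2 was 8.14, with the other 4 arrays at 6.36 to 6.73. Col1a1 in PBS ip week 5 replicate 2 was 9.18, below the other arrays at 10.13 to 10.32. Krt31 in sham week 5 replicate 4 was 10.7, and in PBS gavage week 6 replicate 5 it was 6.81, the array that also had low skeletal muscle genes.

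In Cthrc1 at week 13 all jak3i arrays lay above those of PBS pump, and all jak12i arrays below those of PBS gavage. The effects, as differences of group means, had opposite signs and a difference of 4.20. That difference was not tested, because the gene was chosen on it.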

How the results depend on the processing

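Of 66 alternatives to the 4 tested Cthrc1 differences, 64 kept direction and call, and none passed the test. The exceptions were il15rb minus PBS ip at week 5, which turned to -0.0165 with the ambiguously labelled array counted in PBS ip and ranged from -0.0019 to 0.11 with single arrays left out. Of 153 alternatives to the 8 described differences, 139 kept direction and moved by less than the replicate spread. With Col1a1 as a covariate the week 6 jak12i difference was 0.611, the week 6 direct comparison reversed to -0.145 and the week 13 difference of effects was 3.34; the cause was not tested. Against the other route's vehicle the week 6 values reversed to 0.605 (jak3i), -1.06 (jak12i) and 1.67 (difference), and the week 13 values moved to 0.77, -0.502 and 1.27. Against all vehicles the week 6 values reversed to 0.132, -0.276 and 0.408, and at week 13 jak12i moved to -1.13 and the difference to 2.74, since these vehicles differ. With this shared vehicle both differences of effects are the direct comparisons restated.

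With a replicate block the tested differences were -0.645, 0.212 and -0.433 at week 5 and -0.729 at week 13, none called, the week 13 difference of effects stayed at 4.20, and list calls in the direct week 13 comparison went from 10 to 0. List calls at week 6 were 5 for jak3i and 1 for the difference of effects with quantile normalization, and 3 for jak12i with medians subtracted. With single arrays left out they ranged from 12 to 53 (il15rb, week 13), 0 to 10 (jak3i, week 6), 1 to 7 (jak12i, week 6), 0 to 4 (difference, week 6), 19 to 32 (direct, week 6), 8 to 25 (jak3i, week 13), 12 to 32 (jak12i, week 13) and 0 to 13 (direct, week 13). Without the 2 farthest arrays, r with Col1a1 was -0.317 at week 5 (-0.213 with group means removed), 0.682 at week 6 and 0.572 at week 13, and r with Krt31 over week 6, not read because of its clusters, turned from -0.167 to 0.085 (with group means removed, from -0.0695 to 0.0917). A second Cthrc1 probe set could not be tried, as the array has 1. Signals near the low end limit how small a Cthrc1 change can be seen.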

Other observations

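The array whose title names PBS ip and whose treatment label names IL15, at week 5, had a Cthrc1 signal of 6.21, above every array of PBS ip (5.65 to 6.00) and il15rb (5.83 to 5.93) at that week and inside the range of sham (5.83 to 7.45). Its Col1a1 was 9.14 and its Krt31 6.18.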
